A study of Mus musculus with 11 samples.

Results

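The libraries described here came from 6 oviduct-TBP tumors (Tumor 1 to Tumor 6) and from 4 organoid lines grown out of such tumors (T1-mes, T2-epi, T3-mes and T4-epi). They were taken by their column names and made up 10 of the 27 libraries of the series, and every gene of the table entered the comparison. Oviduct-TBP cells began as oviductal organoids of female mice that carry a Cas9-EGFP cassette in Rosa26. Guides against Trp53, Brca1 and a further gene were given to these organoids, and single clones were picked under Nutlin-3a, a drug that stops cells with working p53. The tumors grew under the skin of adult female NSG mice, which lack T, B and NK cells, and each mouse received 2 injections, so that some tumors may share a mouse. The lines were grown from dissociated tumor pieces in basement membrane extract, in a medium with R-spondin, Noggin, EGF, N-acetylcysteine and A83-01 (an inhibitor of the TGF-beta type I receptor), and under Nutlin-3a. Oviductal organoids of the study also received Wnt and estrogen as a rule, and whether these 4 lines did is not given separately. Lines named epi were uniformly epithelial cultures, and lines named mes were mixed cultures of epithelial cysts and spindle-shaped cells. The paper reports GFP in all cells of the mixed cultures and takes both kinds of cell to stem from the oviduct-TBP clone. All 4 lines came from tumors of 1 original clone, and T1-mes and T2-epi from neighbouring tumors in 1 mouse. Whether the parent tumors of the lines are among Tumors 1 to 6 is not given in the sources used here. RNA of tumors was prepared with Trizol and RNA of organoids with RNeasy columns, so the preparation and the group cannot be told apart.

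The epithelium of the oviduct, the mouse counterpart of the fallopian tube, is thought to be a source of high-grade serous ovarian cancer. A solid tumor is a mixture. Beside the cancer cells it holds fibroblasts that lay down collagen, blood vessels, macrophages and pieces of the tissue it invades. Here all of these host cells are mouse cells like the tumor itself, so that counts per gene do not separate them. Organoid culture favours cells that can divide in a gel of laminin and collagen with epithelial growth factors. Carcinoma cells can also lose keratins and cadherin junctions and gain vimentin, fibronectin and the factors Zeb1 and Snai1, a change called epithelial-mesenchymal transition (EMT).

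Libraries were made by CEL-Seq2, which counts the 3′ end of transcripts, and held between 936348 and 3083507 counts in the tumors and between 1995230 and 2051891 in the lines. Levels are given as CPM, counts scaled to a common library total, after TMM scaling, and a gene with no more than 3 counts in each library of a group is taken to be at the floor of the assay there, between 1.03 and 3.12 CPM by library. Levels can be compared between libraries but not safely between genes, since PCR copies are included and reads shared between genes were dropped. Trp53 (GRCm38 chromosome 11, 69580359 to 69591873) was detected at 20.5 CPM in the lowest tumor, 33.1 CPM at the median and 60.8 CPM in the highest. In culture Trp53 was at 8.71 and 9.77 CPM in the mes lines T1 and T3 and 6.18 and 4.85 CPM in the epi lines T2 and T4. All tumors stood above all lines (log2 fold change 2.30 ± 0.33 (SE), adjusted p = 0.00102; here and below edgeR's quasi-likelihood test with Benjamini-Hochberg adjustment over 11685 genes), and the part that host cells with an intact gene have in the tumor level was not tested. Brca1 (chromosome 11, 101488764 to 101551955) ranged from 7.55 to 20.1 CPM in the tumors (median 10.04). In culture Brca1 was at 15.5 and 3.08 CPM in the mes lines T1 and T3 and 8.24 and 11.3 CPM in the epi lines T2 and T4, and was not called (log2 fold change 0.25 ± 0.46 (SE), adjusted p = 0.71). The edits were made near the start of both genes, and 3′ counts do not read them.

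The tumors were not alike, and the libraries that stood apart are given here because several results rest on them. Summed over 32 genes of simple epithelium (keratins, junction proteins and epithelial transcription factors), Tumor 1 held 3967 CPM and Tumor 3 held 5804 CPM, against 659.5, 658, 530.1 and 651 CPM in Tumors 2, 4, 5 and 6. The same list was at 5169 and 588 CPM in the mes lines T1 and T3 and 7569.7 and 8794 CPM in the epi lines T2 and T4. So T3-mes carried as little epithelial message as the 4 poorer tumors, while T1-mes lay near Tumors 1 and 3. Genes of skeletal muscle summed to 29508 CPM in Tumor 5 and 11808 CPM in Tumor 6 and to between 155 and 3803 CPM in the other tumors. The labels of the lines matched their defining genes: both epi lines were rich in keratins and low in vimentin, and both mes lines held vimentin, although T1-mes held epithelial genes as well.

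**Figure D1:**
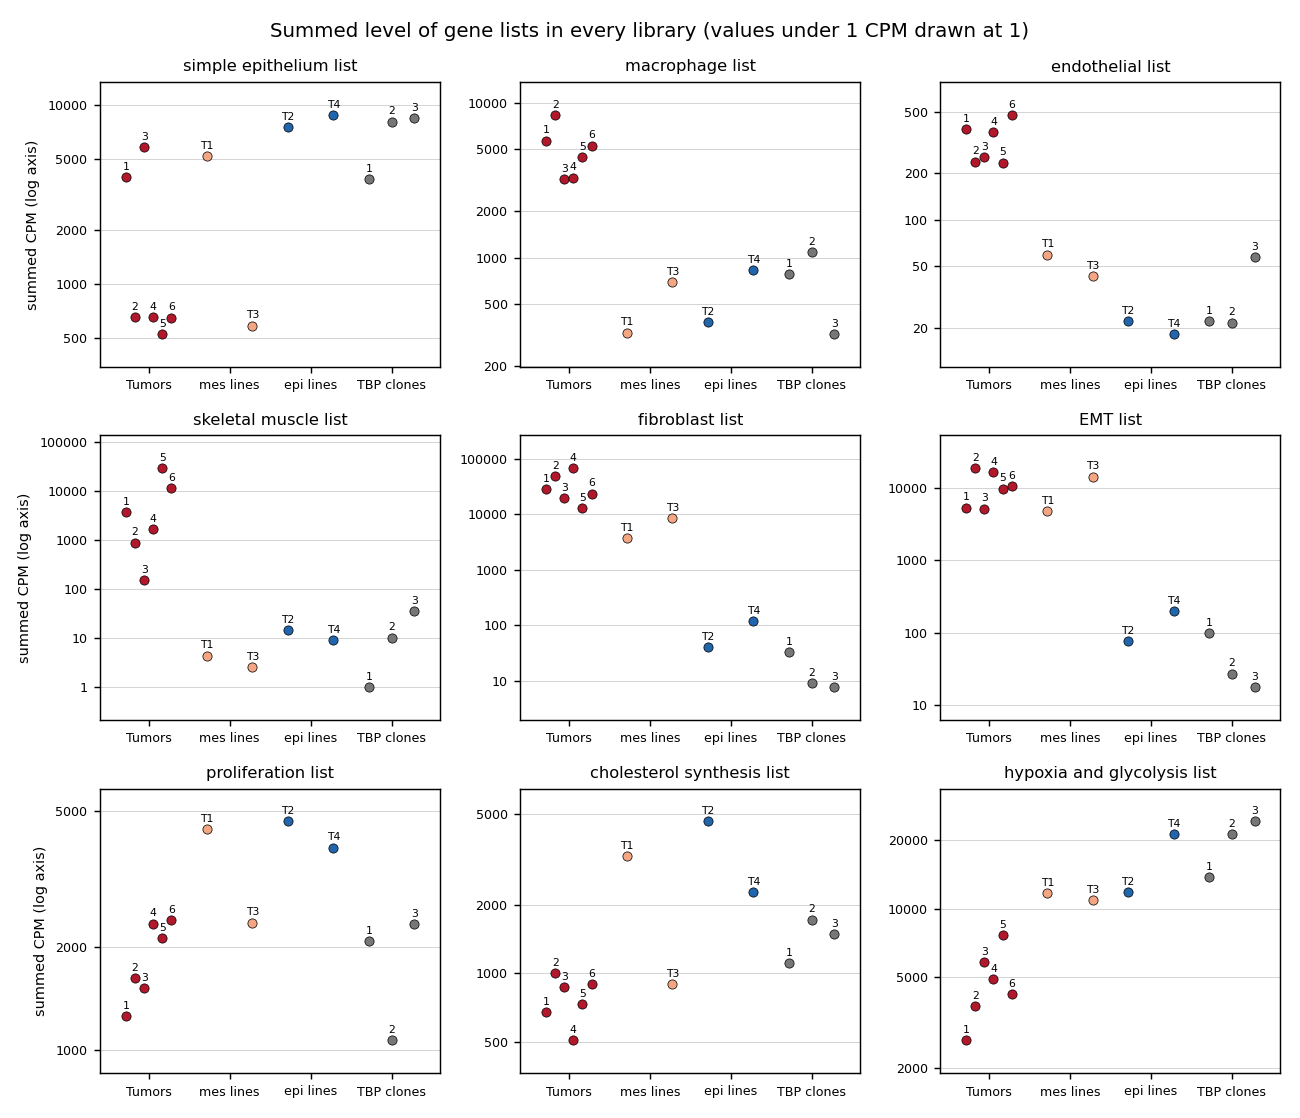
Summed level (CPM, log axis) of 9 gene lists in each library; every point is 1 library, numbered or named beside it, for 6 tumors, 2 mes lines, 2 epi lines and, for reference, 3 oviduct-TBP clones before transplantation. Macrophage, endothelial and skeletal muscle lists were higher in each tumor than in each line, fibroblast and EMT lists were lowest in epi lines and clones, and the hypoxia and glycolysis list was higher in each line than in each tumor.

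Tumors and lines were first compared over all genes. Of 11685 genes tested, 2452 were higher in the tumors than in the 4 lines (21.0%) and 1439 were lower (12.3%), with a median log2 fold change over all genes of 0.12. For 3215 genes (27.5%) the 95% interval of the change lay within 2-fold. Set against the epi lines alone, 2024 genes were higher in tumors (17.3%) and 1316 lower (11.3%), and 1894 lay within 2-fold (16.2%). Set against the mes lines alone, 1036 were higher (8.87%) and 799 lower (6.84%), and 2170 lay within 2-fold (18.6%). These 3 comparisons share the 6 tumors and, in part, the lines. Compared with each other, mes lines had 279 genes above (2.39%) and 20 below the epi lines (0.171%).

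With 2 lines of each kind, single libraries weigh on these counts. Without T1-mes or T3-mes the genes called higher in tumors than mes lines numbered 521 and 368 and those called lower 501 and 318, and without T2-epi or T4-epi those called higher than epi lines numbered 882 and 857 and those called lower 675 and 496. Leaving out T4-epi also took the genes lower than all lines to 947. The mes against epi comparison gave 88 genes above and 1 below without T3-mes, 425 and 75 without T1-mes, and 0 without T2-epi or without T4-epi, where edgeR left 971 and 1093 genes above and 529 and 368 below at an unadjusted p under 0.05. With all 4 lines DESeq2 called 594 above and 147 below. In edgeR's fit 183 were above and 10 below without Tumor 6, and 12 were below without Tumor 5. With the 4 lines as 1 class, 1602 genes were higher in tumors, and DESeq2 called 1615 higher than mes lines. Without Tumors 5 and 6, a choice made after seeing the data, 530 were lower than mes lines. Tumors that share a mouse are not separate animals, so the p-values measure the spread between these samples.

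Much of what was higher in tumors was close to absent from culture. Of the 2452 genes, 668 had at most 3 counts in each of the 4 lines, and 1045 had at most 3 counts in both epi lines. Of the 1439 genes higher in the lines, only 26 were at that floor in all 6 tumors. The library distances, Euclidean on log2 CPM of the tested genes, averaged 206 ± 19.8 (SD over 12 pairs) from tumors to epi lines, 177 ± 12.4 (SD over 12 pairs) from tumors to mes lines and 117 ± 21.5 (SD over 15 pairs) among tumors. The pairs share libraries, so these SDs describe spread and carry no test. T2-epi and T4-epi lay 82.9 apart and T1-mes and T3-mes 123, while T1-mes lay 119 and 121 from the epi lines. Tumor 3 was the tumor nearest to 3 of the 4 lines, at 149 from T1-mes and 168 and 168 from the epi lines, and Tumor 4 was nearest to T3-mes at 161.

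**Figure D2:**
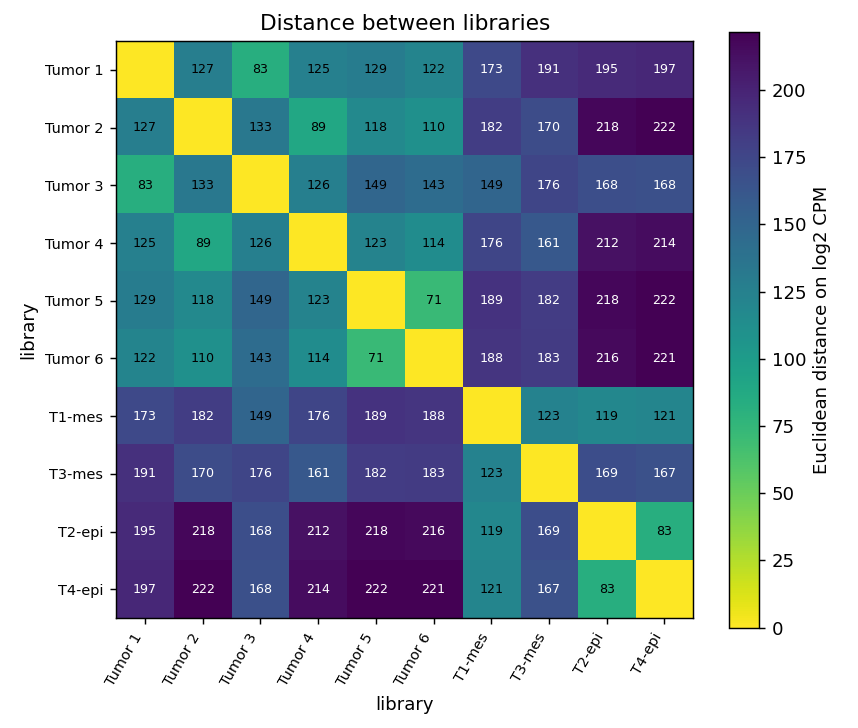
Euclidean distance between each pair of the 10 libraries on log2 CPM over the tested genes, with the colour scale at the right. Tumors 1 and 3, Tumors 2 and 4, and Tumors 5 and 6 formed close pairs, and distances from tumors to epi lines reached 222, although Tumor 3 lay nearer to both epi lines (168 and 168) than to T3-mes (176).

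**Figure D3:**
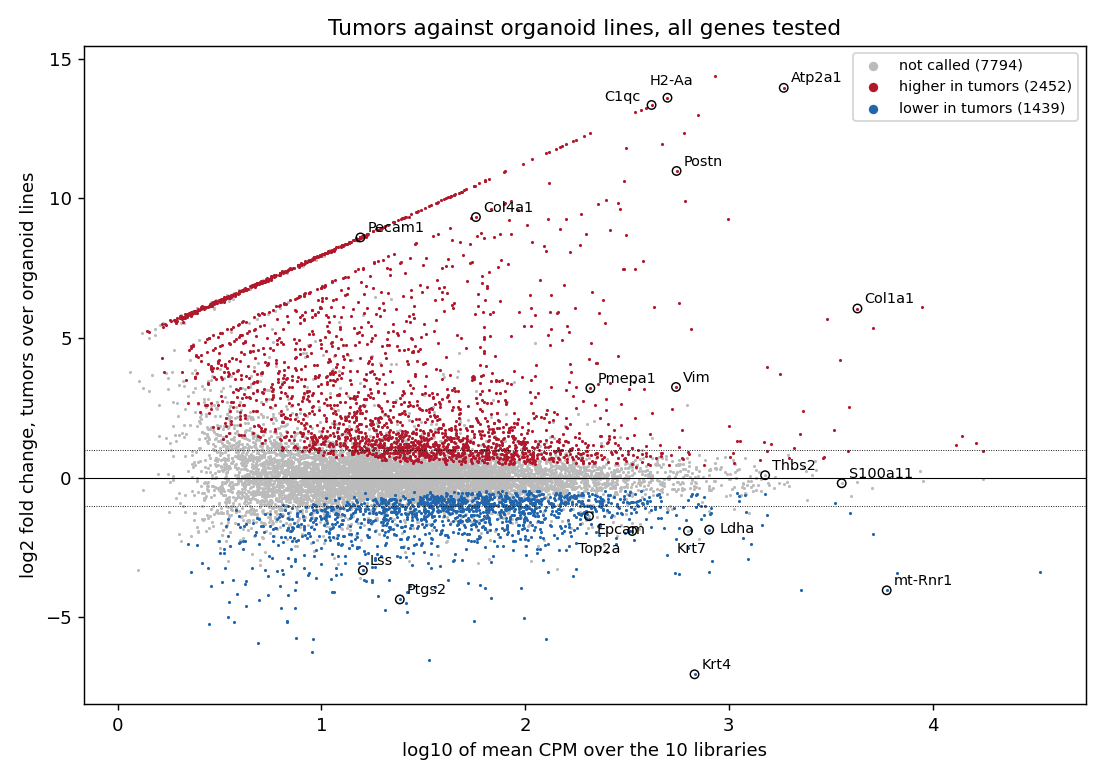
Log2 fold change of tumors over organoid lines (vertical axis) against the log10 of the mean CPM over the 10 libraries (horizontal axis) for each tested gene; dotted lines mark 2-fold. The upper straight band is made of genes with no counts in the lines, whose fitted change depends on the prior count and is a description only.

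Markers of immune, vessel and muscle cells separated the tumors from both kinds of line. Of 23 macrophage genes tested, 20 were higher in tumors than in all lines, 20 against epi lines and 19 against mes lines, and none was lower, where 21.0%, 17.3% and 8.87% of all genes were higher. Those shares, and 12.3%, 11.3% and 6.84% for lower calls, stand beside the counts of all lists that follow. In bulk RNA, fewer cells of a type and less RNA per cell cannot be told apart, here and for the lineages that follow. With genes at the floor set to their bound, the list had a median log2 fold change of 5.87, against 0.12 for all genes. C1qc, which encodes a chain of the complement component C1q made by tissue macrophages, stood at 276 CPM in the lowest tumor, 686 CPM at the median and 1335 CPM in the highest. No line held a single C1qc count, so tumors were at least 431-fold higher (adjusted p = 8.26e-05). Ptprc, the pan-leukocyte antigen CD45, ranged from 64.8 to 159 CPM in the tumors (median 81.4) and reached 1.45 CPM in T1-mes and 0 in the other 3 lines (at least 62.6-fold, adjusted p = 0.000129). The summed macrophage list still reached 327 to 832 CPM in the lines, and most of it was Cd14 and Cd53, which were not called. Cd14, a receptor for bacterial lipopolysaccharide, was at 114 and 24.7 CPM in the mes lines T1 and T3 and 267 and 324 CPM in the epi lines T2 and T4, and ranged from 76.6 to 649.5 CPM in the tumors (median 105), so that only T3-mes lay below the tumors.

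MHC class II genes, which present peptides on macrophages, dendritic cells and B cells, followed the macrophage genes. Of 6 tested, 5 were higher in tumors than in all lines. H2-Aa was at 222 CPM in the lowest tumor, 792 CPM at the median and 1531 CPM in the highest and had no count in any line (at least 515-fold, adjusted p = 0.000171). H2 genes have close relatives, and reads shared between them were dropped by the unique mapping, so their levels are less certain. Of 14 epithelial defence genes tested 1 was higher and 1 lower in tumors (Lyz1 and Cxcl1), and the lower call was lost with library totals, without Tumor 1, 2, 3, 5 or 6 and without T1-mes, T2-epi or T4-epi. Lyz1, a lysozyme whose reads are uncertain because Lyz2 of macrophages is nearly identical, ranged from 499.9 to 1569.7 CPM in the tumors (median 1074) against 6.77 and 0 CPM in the mes lines T1 and T3 and 0.515 and 0 CPM in the epi lines T2 and T4 (log2 fold change 9.89 ± 1.13 (SE), adjusted p = 0.000129).

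Lymphocyte genes were scarce everywhere. Of 16 lymphoid genes in the table, only 3 had enough counts to be tested, 10 were at the floor in all 6 tumors, and the list summed to 15.6 to 32.7 CPM in the tumors (median 21.9). Cd4, which some mouse macrophages also express, and Il7r were called higher in tumors (adjusted p = 0.00122 and adjusted p = 0.00181). Mast cell proteases were present: Tpsb2 (tryptase) ranged from 9.15 to 70.7 CPM in the tumors (median 32) with no count in the lines (adjusted p = 0.0014), and 4 of 5 mast cell genes tested were higher in tumors. Neutrophil genes were uneven. S100a9, a subunit of calprotectin, was at 491, 27.3, 877, 241, 0 and 13.1 CPM in Tumors 1 to 6. In culture S100a9 was at 0 and 0.514 CPM in the mes lines T1 and T3 and 2.06 and 4.31 CPM in the epi lines T2 and T4; Tumor 5 had no count and the groups overlapped (log2 fold change 8.09 ± 2.80 (SE), adjusted p = 0.0163). That call was lost on leaving out any 1 line, with adjusted p from 0.0652 to 0.077. Against epi and mes lines, 17.3% and 8.87% of all genes were called higher in tumors. Over all lines 6 of 8 neutrophil genes were called, against epi lines 2 and against mes lines 0, where each kind has only 2 libraries. Over the remaining lines 4 were called without T3-mes and 3 without each of the other lines.

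Endothelial genes gave 19 of 20 higher in tumors than in all lines, 18 against epi and 15 against mes lines. Pecam1, the junction protein CD31 of blood vessels (GRCm38 chromosome 11, 106654217 to 106750628), was at 15.1 CPM in the lowest tumor, 26.7 CPM at the median and 37.4 CPM in the highest and at 0 in all 4 lines (at least 16-fold, adjusted p = 0.000118). Cdh5, the vascular cadherin, ranged from 6.6 to 79.1 CPM in the tumors (median 18.6) with 1 count in T4-epi and none in the other lines (adjusted p = 0.00186). Flt1, a VEGF receptor, stood apart: it was at 20.3 and 16.4 CPM in the mes lines T1 and T3, within the tumor range of 10.5 to 43.3 CPM. Plvap, of fenestrated vessels, was at 17.9 and 16.4 CPM in the mes lines T1 and T3, below every tumor, and both were called higher in mes than epi lines (adjusted p = 0.0328 and adjusted p = 0.0109). The vessel genes Pecam1, Cdh5, Emcn, Tie1 and Sox18 were at 0 counts in both mes lines.

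Contractile genes split by cell type. Acta2, smooth muscle actin of pericytes and activated fibroblasts, was at 180.0 CPM in the lowest tumor, 560.0 CPM at the median and 843 CPM in the highest, against 5.32 and 4.11 CPM in the mes lines T1 and T3 and 0.515 and 0 CPM in the epi lines T2 and T4 (log2 fold change 8.69 ± 0.93 (SE), adjusted p = 8.26e-05), and 8 of 10 genes of this list were higher in tumors. Smtn went the other way against mes lines (log2 fold change -1.50 ± 0.44 (SE), adjusted p = 0.0362). All 12 skeletal muscle genes tested were higher in tumors than in all lines, and 7 and 7 against epi and mes lines. Atp2a1, the calcium pump of fast muscle fibres, was at 1225, 321, 43.2, 631, 11124 and 5247 CPM in Tumors 1 to 6, with 2 counts in T3-mes and none in the other lines (at least 1918-fold, adjusted p = 0.00313). Tumors 5 and 6 held the most, and even Tumor 3, with the least, was above every line. Without Tumor 5 the Atp2a1 bound was 924-fold. Without Tumors 5 and 6, chosen after their values were seen, 12 of the 12 muscle genes tested stayed called, and 9 were called without T1-mes or without T3-mes and 8 without T2-epi or without T4-epi. Adipocyte genes were highest in Tumors 1 and 5, where the list summed to 1697 and 1849 CPM, and 5 of 5 tested were called (3 without Tumors 5 and 6 or without T3-mes). Keratins of stratified epithelium, such as skin, were highest in Tumors 2 and 4, where the list summed to 1915 and 2562 CPM, and 5 of 11 were called, but 1 on leaving out any 1 line and 8 without Tumors 5 and 6. Krt5, a basal keratin, was at 115, 359, 299.6, 809.7, 0 and 0 CPM in Tumors 1 to 6, and at most 4.12 CPM in a line. In T1-mes the list reached 589 CPM through 1 gene, Krt15, at 568 CPM. The only member of the erythroid list tested was called, but not with DESeq2, without Tumor 2 or without any 1 line. Beta-s, a beta globin outside that list, was also called and is described below. Of 3 Schwann cell genes 0 were called (at an unadjusted p under 0.05, edgeR left 0).

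**Figure D4:**
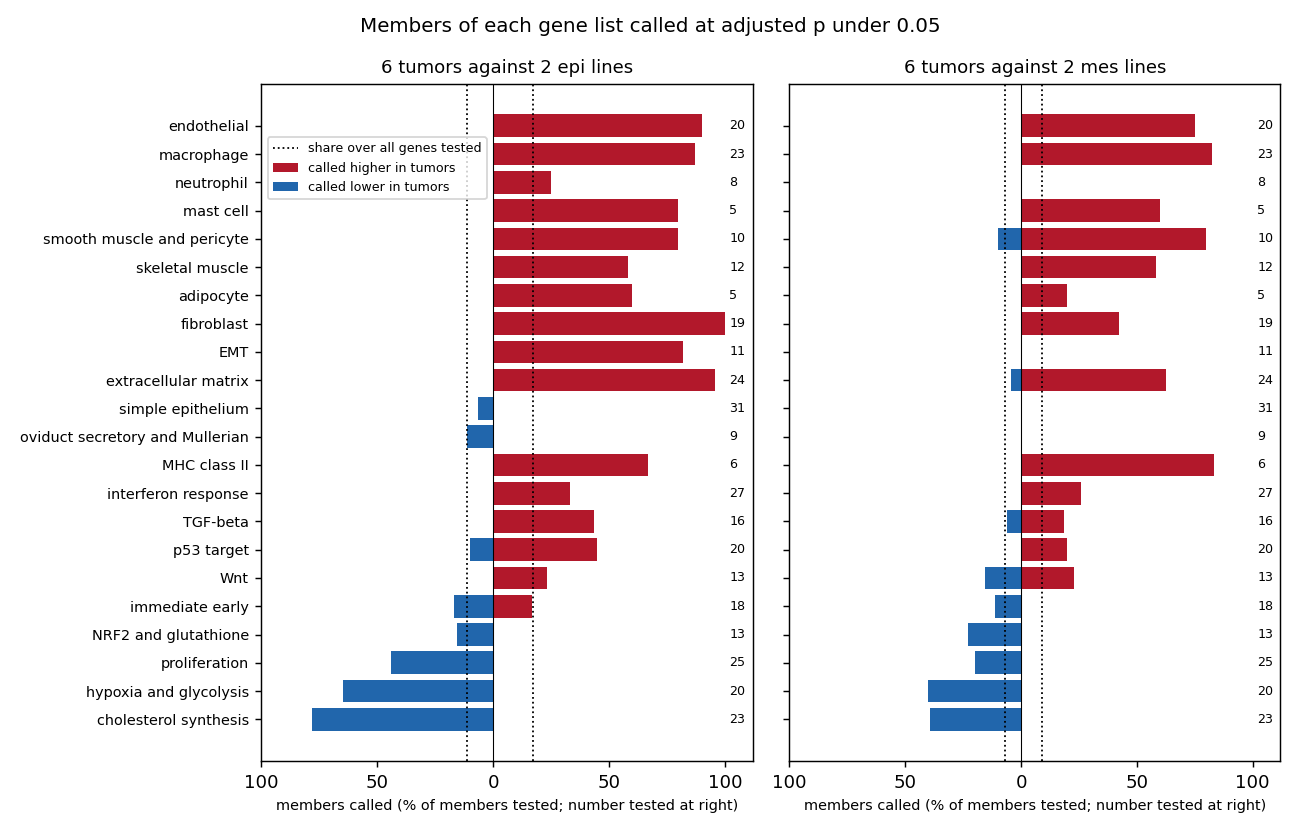
Share of the tested members of each list called higher (red, to the right) or lower (blue, to the left) in tumors against 2 epi lines (left panel) and 2 mes lines (right panel), with the number tested at the right edge and the share over all genes as dotted lines. Macrophage, endothelial and muscle bars were long in both panels, EMT members were called against epi lines and not against mes lines, and cholesterol, glycolysis and proliferation bars ran to the left.

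The lines named mes differed from the epi lines in stromal and EMT genes, and tumors held these genes at levels nearer to mes lines. Of 11 EMT genes tested, 9 were higher in tumors than in epi lines, 0 were called higher and 0 lower than in mes lines, where 8.87% and 6.84% of all genes were, and 8 were higher in mes than in epi lines. Among all genes 17.3% were higher in tumors than in epi lines and 2.39% higher in mes than in epi lines. The same shares stand beside the fibroblast and matrix counts below. The part of host cells in the tumor values of the EMT, fibroblast and matrix lists was not tested. The median log2 fold change of the list was -0.19 over mes lines and, with genes at the floor set to their bound, 5.09 over epi lines. Vim, the intermediate filament of mesenchymal cells, was at 340.1, 443, 241, 1280.2, 1079 and 873 CPM in Tumors 1 to 6. It was at 422 and 805 CPM in the mes lines T1 and T3, and at 4.63 and 13.5 CPM in the epi lines T2 and T4. Mes lines lay inside the tumor range and epi lines below every other library (log2 fold change 6.08 ± 0.83 (SE), adjusted p = 0.0137 for mes over epi; log2 fold change 0.21 ± 0.63 (SE), adjusted p = 0.862 for tumors over mes). Fn1, the matrix protein fibronectin, ranged from 866 to 4267 CPM in the tumors (median 2181), and was at 1341 and 7339 CPM in the mes lines T1 and T3 and 12.9 and 84 CPM in the epi lines T2 and T4 (log2 fold change 6.48 ± 0.98 (SE), adjusted p = 0.0262 for mes over epi). Zeb1, a repressor of E-cadherin, was at 31.6 CPM in the lowest tumor, 46.2 CPM at the median and 107 CPM in the highest. In culture Zeb1 was at 65.8 and 69.9 CPM in the mes lines T1 and T3 and at 0.515 and 0.539 CPM in the epi lines T2 and T4, which is 1 count in each epi line (adjusted p = 0.00592 for mes over epi). Snai1 and Twist2 had no count in either epi line and 28.8 and 30.8 CPM on average in mes lines, of which Twist2 was called (adjusted p = 0.0372) and Snai1 was not (adjusted p = 0.0873). Twist1 was found in all 10 libraries and was not called in any of the 4 comparisons. The mes over epi calls of Vim, Fn1, Zeb1, Col1a1 and Thbs2 were lost when T2-epi or T4-epi was left out, those of Vim, Fn1, Col1a1 and Thbs2 also without T3-mes (adjusted p = 0.0535, 0.0966, 0.0531 and 0.0782) and that of Fn1 without Tumors 5 and 6 (adjusted p = 0.0526). Even so, the log2 fold changes of Vim, Fn1, Col1a1 and Thbs2 were at least 4.46 under each of the 18 alternatives run for them. With tumors and lines as only 2 classes, Vim, Fn1, Zeb1 and Col1a1 were not called between tumors and lines (adjusted p = 0.457, 0.947, 0.643 and 0.066). The tumor call of Fn1 over all lines was also lost without T1-mes, without T2-epi and without Tumors 5 and 6 (adjusted p = 0.0717, 0.0737 and 0.0555).

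Fibroblast genes formed a gradient. All 19 tested were higher in tumors than in epi lines, 8 were higher than in mes lines, and 10 were higher in mes than in epi lines. Col1a1, the main chain of type I collagen (GRCm38 chromosome 11, 94936224 to 94953042), was at 5619, 10917, 3986, 14112, 1964 and 4068 CPM in Tumors 1 to 6. In culture Col1a1 was at 680.3 and 1414 CPM in the mes lines T1 and T3, and at 4.63 and 15.1 CPM in the epi lines T2 and T4. Tumors, mes lines and epi lines did not overlap, with log2 fold change 6.72 ± 0.90 (SE), adjusted p = 0.014 for mes over epi and log2 fold change 2.69 ± 0.69 (SE), adjusted p = 0.0517 for tumors over mes, which was not called. Pdgfra, the receptor that marks many fibroblasts, was in contrast at 274 and 266 CPM in the mes lines T1 and T3, above every tumor (44.6 to 237 CPM), though tumors and mes lines did not pass the test (log2 fold change -1.31 ± 0.52 (SE), adjusted p = 0.0943), and Dcn, the proteoglycan decorin, was at 547 and 1241 CPM in the mes lines T1 and T3 against a tumor median of 591 CPM. Other fibroblast genes were at or near 0 in mes lines. Postn (periostin), made by activated fibroblasts, was at 482 CPM in the lowest tumor, 1005 CPM at the median and 1309.8 CPM in the highest. In culture Postn was at 0 and 6.17 CPM in the mes lines T1 and T3 and 0 and 0 CPM in the epi lines T2 and T4 (adjusted p = 0.00271 for tumors over mes). Thy1 and Sfrp2 likewise had at most 1 count in each line, against tumor medians of 175 and 66.1 CPM (adjusted p = 0.00219 and adjusted p = 0.00117).

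The same split ran through the extracellular matrix, the network of collagens, glycoproteins and elastic fibres around cells. Of 24 matrix genes tested, 23 were higher in tumors than in epi lines and 15 than in mes lines, and 11 were higher in mes than in epi lines. Genes at the floor in both kinds of line included some of the basement membrane and of elastic fibres. Other genes of these structures were found in the mes lines T1 and T3. Col18a1 had 323 and 98 counts there, Lama4 62 and 8, Fbn1 32 and 5, and Emilin1 26 and 93. Col18a1 also had 51 and 52 counts in the epi lines T2 and T4. Col4a1, a chain of the type IV collagen of basement membranes (GRCm38 chromosome 8, 11198423 to 11312826), was at 50.9 CPM in the lowest tumor, 100.23 CPM at the median and 124 CPM in the highest and gave 1 count in T2-epi and none elsewhere in culture (at least 59.1-fold, adjusted p = 5.9e-05). Nid1, the linker nidogen, ranged from 32.3 to 146 CPM in the tumors (median 66.4) and Eln, elastin, from 148 to 621 CPM in the tumors (median 198), and neither had a count in any line (at least 46.1-fold and 183-fold; adjusted p = 0.000265 and adjusted p = 0.000165). Tnc, tenascin C, was at 49 CPM in the lowest tumor, 262 CPM at the median and 392 CPM in the highest. In culture Tnc was at 1.45 and 0 CPM in the mes lines T1 and T3 and 0.515 and 0 CPM in the epi lines T2 and T4 (adjusted p = 0.000149). Thbs2, an adhesive glycoprotein, went the other way: it was at 259 CPM in the lowest tumor, 656 CPM at the median and 982 CPM in the highest. In culture Thbs2 was at 1507 and 9486 CPM in the mes lines T1 and T3 and at 21.6 and 116 CPM in the epi lines T2 and T4, so mes lines stood above every tumor and epi lines below every tumor (log2 fold change -3.07 ± 0.75 (SE), adjusted p = 0.0148 for tumors over mes; log2 fold change 3.25 ± 0.76 (SE), adjusted p = 0.0265 for tumors over epi).

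By the naming rule, the 5 genes with the largest change of tumors over epi lines that were also higher in mes than epi lines were Col5a2, Rcn3, Fbln2, Lsp1 and Atp2b4. None had a count in either epi line. Rcn3, a calcium-binding protein of the secretory pathway, was in mes lines (74 and 169 CPM in the mes lines T1 and T3) inside the range of the tumors (59.5 to 248 CPM), whereas Col5a2, a fibrillar collagen chain, was at 18.9 and 7.71 CPM in the mes lines T1 and T3 against 122 to 466 CPM. Of the 2024 genes higher in tumors than in epi lines, 262 were also higher in mes than in epi lines, and 269 had at most 3 counts in both epi lines and more than 3 in both mes lines.

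Few epithelial genes passed the test, and the tumors differed widely. Of 31 simple epithelium genes tested, 0 were higher and 0 lower in tumors than in all lines, and 2 (Ovol1 and Spint1) were lower than in epi lines; none had its interval within 2-fold. At an unadjusted p under 0.05 edgeR left only Ehf and Ovol1, both lower in tumors. The median log2 fold change of the list was -1.16 against all, -1.997 against epi and -0.38 against mes lines. Against all lines it turned to 0.22 without T1-mes, and with all libraries of the series in the fit 7 of 32 were lower. Epcam, an adhesion molecule of epithelia, was at 213, 8.48, 409, 14.6, 0 and 1.96 CPM in Tumors 1 to 6. In culture Epcam was at 253 and 30.3 CPM in the mes lines T1 and T3 and 470.0 and 657 CPM in the epi lines T2 and T4 (log2 fold change -1.38 ± 1.43 (SE), adjusted p = 0.484). Tumors 1 and 3 were near T1-mes, and Tumors 2, 4, 5 and 6 were below T3-mes. Krt7, a keratin of simple epithelia, split the tumors likewise, at 579, 2.83, 809, 20.8, 65.6 and 99.96 CPM in Tumors 1 to 6. In culture Krt7 was at 942 and 120.3 CPM in the mes lines T1 and T3 and 1676 and 1982 CPM in the epi lines T2 and T4 (log2 fold change -1.90 ± 1.16 (SE), adjusted p = 0.232). As a share of the mean of the epi lines, the summed list stood at 48.5% in Tumor 1, 70.9% in Tumor 3 and between 6.48% and 8.06% in the other tumors, and at 63.2% in T1-mes and 7.19% in T3-mes.

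Genes of the oviduct's secretory lineage also split the tumors. Of 9 tested, 1 was lower in tumors than in epi lines and none was called against mes or all lines. That gene was Pax8, a transcription factor of Müllerian epithelium, at 26.9, 0, 44.3, 0, 24 and 3.27 CPM in Tumors 1 to 6. In culture Pax8 was at 167 and 7.2 CPM in the mes lines T1 and T3 and 199 and 194 CPM in the epi lines T2 and T4 (log2 fold change -3.49 ± 1.30 (SE), adjusted p = 0.0491). Against all lines it missed the threshold (log2 fold change -2.90 ± 1.05 (SE), adjusted p = 0.054), and passed it without Tumor 3 or without T3-mes (adjusted p = 0.0372 and 0.0319). Sox17, another Müllerian factor, was highest in Tumors 1 and 3 (130.3 and 255 CPM) and was at 293 and 20.6 CPM in the mes lines T1 and T3 and 334 and 254 CPM in the epi lines T2 and T4. Wfdc2, which encodes the serum marker HE4, was at 625, 10.4, 751, 25, 19.9 and 25.5 CPM in Tumors 1 to 6. In culture Wfdc2 was at 926 and 136 CPM in the mes lines T1 and T3 and 2088 and 2548 CPM in the epi lines T2 and T4 (log2 fold change -2.19 ± 1.22 (SE), adjusted p = 0.194). Of the ovarian cancer markers 8 of 8 tested were not called; Spp1, osteopontin, ranged from 776 to 2119.7 CPM in the tumors (median 976). In culture Spp1 was at 1948 and 1188 CPM in the mes lines T1 and T3 and 1120.2 and 2017 CPM in the epi lines T2 and T4 (log2 fold change -0.46 ± 0.33 (SE), adjusted p = 0.312). Ciliated cell genes were near the floor: 13 of 16 were at it in all lines and 11 in all tumors. Foxj1, the factor that drives motile cilia, was at 22.2 CPM in Tumor 1 and 26.9 CPM in Tumor 3, and at most 1.54 CPM in a line (adjusted p = 0.039).

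**Figure D5:**
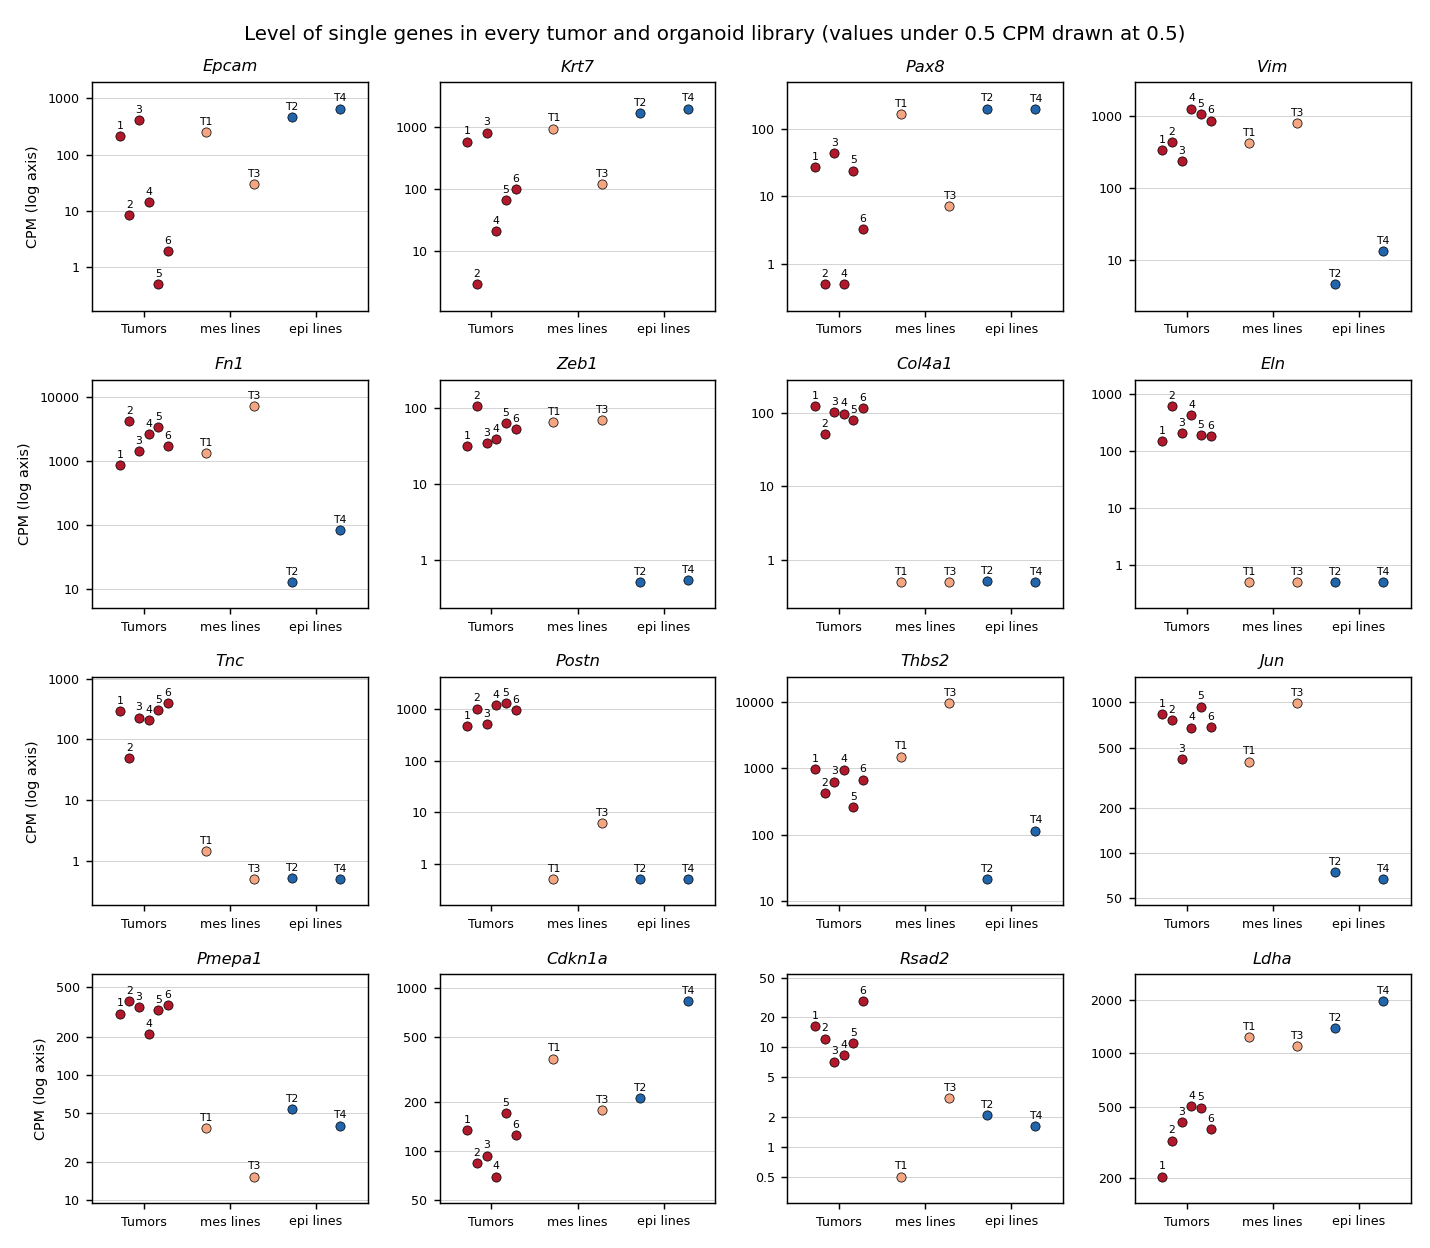
Level (CPM, log axis) of 16 genes in each library; points are single libraries, numbered by tumor or named by line, in 6 tumors, 2 mes lines and 2 epi lines. Epcam, Krt7 and Pax8 split the tumors, Vim, Fn1, Zeb1 and Jun were low in epi lines, and Col4a1, Eln, Tnc and Postn were near 0 in all lines.

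Culture was marked by higher levels of metabolic and cell cycle genes. Of 23 genes of cholesterol synthesis and its control tested, 18 were lower in tumors than in all lines, 18 lower than in epi and 9 lower than in mes lines, with a median log2 fold change of -1.78 against all lines. The shares over all genes were 12.3%, 11.3% and 6.84%, here and for the glycolysis genes below. Lss, lanosterol synthase, did not overlap, with 1.04 to 6.53 CPM in tumors and 40.6 and 12.8 CPM in the mes lines T1 and T3 and 57.7 and 28.5 CPM in the epi lines T2 and T4 (log2 fold change -3.31 ± 0.52 (SE), adjusted p = 0.00117). CCAAT, searched on both strands, was in 15 of 16 list members with a RefSeq promoter and in 41.1% of all genes. Over the list, T3-mes summed to 894 CPM, within the 509 to 1004 CPM in the tumors (median 799.8), and the other lines to between 2277 and 4650.2 CPM. The 3 oviduct-TBP clones, cultured before transplantation, summed to 1113, 1724 and 1486 CPM, above the tumors and below those lines.

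Genes of glycolysis and the hypoxia response were lower in tumors for 14 of 20 tested (13 against epi and 8 against mes lines; median log2 fold change -1.49). Ldha, lactate dehydrogenase, was at 203 CPM in the lowest tumor, 393 CPM at the median and 507 CPM in the highest. In culture Ldha was at 1233 and 1095 CPM in the mes lines T1 and T3 and 1390.0 and 1974 CPM in the epi lines T2 and T4 (log2 fold change -1.86 ± 0.26 (SE), adjusted p = 0.000681), so every line was above every tumor. Vegfa, the vessel growth factor, was at 113 CPM in the lowest tumor, 239 CPM at the median and 327 CPM in the highest. In culture Vegfa was at 986 and 1661 CPM in the mes lines T1 and T3 and 403 and 1121 CPM in the epi lines T2 and T4 (log2 fold change -2.21 ± 0.39 (SE), adjusted p = 0.00237), again without overlap. Aldoa, Ndrg1, Slc2a1, Car9, P4ha2 and Ankrd37 were not called, and Aldoa, which muscle also uses, was highest among tumors in Tumors 5 and 6 (2304 and 1387 CPM). Among the lines the summed list was highest in T4-epi, at 21284 CPM, where Egln3 reached 2881 CPM against 747 in T2-epi. In the 3 oviduct-TBP clones it summed to 13831, 21288 and 24186 CPM, above every tumor.

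Members of this list were chosen as known genes of the hypoxia response and glycolysis, and their promoters are shown for the sequence they share. Genes induced by hypoxia are bound by HIF at the core ACGTG, and 15 of 20 list members with a RefSeq promoter (GRCm38.p6, 250 bases before to 50 after the start) held ACGTG on either strand, against 21.8% of all 27025 genes with a promoter entry. Among the 14 members called lower in tumors with an entry, 10 held it. A shared motif describes these windows and does not show binding. The promoters of 3 called members are given 5′ to 3′ on the gene's strand, with each ACGTG or its complement CACGT in capitals: Pgk1 (chrX:106186850-106187149, plus strand), Pgam1 (chr19:41911621-41911920, plus strand) and Bnip3 (chr7:138909457-138909756, minus strand, where both strands' matches overlap).
Pgk1: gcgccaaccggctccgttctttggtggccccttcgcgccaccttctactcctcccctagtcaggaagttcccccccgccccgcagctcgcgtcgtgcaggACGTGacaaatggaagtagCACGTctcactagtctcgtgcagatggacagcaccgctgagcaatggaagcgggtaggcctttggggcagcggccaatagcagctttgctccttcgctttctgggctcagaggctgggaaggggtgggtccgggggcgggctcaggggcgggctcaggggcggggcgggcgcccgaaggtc
Pgam1: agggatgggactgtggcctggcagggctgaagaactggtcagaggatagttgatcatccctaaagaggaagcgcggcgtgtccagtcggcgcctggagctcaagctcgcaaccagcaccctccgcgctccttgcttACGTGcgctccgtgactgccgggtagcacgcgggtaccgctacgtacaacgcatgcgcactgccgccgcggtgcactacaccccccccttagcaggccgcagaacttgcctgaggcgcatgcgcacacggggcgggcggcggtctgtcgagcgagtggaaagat
Bnip3: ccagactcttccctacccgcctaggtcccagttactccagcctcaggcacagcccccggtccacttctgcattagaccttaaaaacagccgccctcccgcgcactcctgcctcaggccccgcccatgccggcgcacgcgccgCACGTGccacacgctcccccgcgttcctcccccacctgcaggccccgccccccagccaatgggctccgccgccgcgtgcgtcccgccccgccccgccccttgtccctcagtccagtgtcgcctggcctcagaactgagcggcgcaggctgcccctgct
The matches begin 150 and 131 bases before the start in Pgk1, 114 bases in Pgam1, and 108 and 107 bases in Bnip3. Pgk1, phosphoglycerate kinase, was at 382 CPM in the lowest tumor, 761 CPM at the median and 1084 CPM in the highest. In culture Pgk1 was at 2367 and 1944 CPM in the mes lines T1 and T3 and 2475 and 3174 CPM in the epi lines T2 and T4 (log2 fold change -1.70 ± 0.28 (SE), adjusted p = 0.00167). Pgam1, phosphoglycerate mutase, ranged from 549 to 1497 CPM in the tumors (median 871). In culture Pgam1 was at 2333 and 1991 CPM in the mes lines T1 and T3 and 2184 and 3126 CPM in the epi lines T2 and T4 (log2 fold change -1.33 ± 0.27 (SE), adjusted p = 0.00413). Bnip3, a mitophagy receptor, ranged from 113 to 548 CPM in the tumors (median 220.2). In culture Bnip3 was at 671 and 557 CPM in the mes lines T1 and T3 and 668 and 2193 CPM in the epi lines T2 and T4 (log2 fold change -1.81 ± 0.51 (SE), adjusted p = 0.0201). In all 3 genes every line stood above every tumor.

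Of 25 proliferation genes tested, 11 were lower in tumors than in all lines, 11 against epi and 5 against mes lines, and 7 lay within 2-fold. Among all genes 12.3%, 11.3% and 6.84% were lower, and 27.5% lay within 2-fold, about the share in this list. The called genes were Bub1, Ccnb1, Ccnb2, Cdk1, Foxm1, Plk1, Tpx2 and Top2a of the G2 phase and mitosis, the cycling cell marker Mki67, the nucleotide enzyme Rrm2 and Mcm7. Top2a, the topoisomerase of mitotic chromosomes, was at 118 CPM in the lowest tumor, 159.9 CPM at the median and 211 CPM in the highest. In culture Top2a was at 738 and 352 CPM in the mes lines T1 and T3 and 683 and 625 CPM in the epi lines T2 and T4 (log2 fold change -1.91 ± 0.24 (SE), adjusted p = 0.000433). Ccnb2, a mitotic cyclin, was at 29.2 CPM in the lowest tumor, 41.8 CPM at the median and 54.2 CPM in the highest. In culture Ccnb2 was at 168 and 77.6 CPM in the mes lines T1 and T3 and 203 and 298 CPM in the epi lines T2 and T4 (log2 fold change -2.07 ± 0.27 (SE), adjusted p = 0.000522). In neither gene did tumors and lines overlap. Without T1-mes or without T2-epi, 4 and 5 proliferation genes were called. Among replication genes, Mcm2, Mcm3, Mcm4, Mcm5 and Mcm6 and Pcna were not called, with log2 fold changes from -0.32 to 0.76. Aurka, Aurkb, Birc5, Bub1b, Ccna2, Cdc20 and Ube2c of the G2 phase and mitosis were not called either, nor was Tyms. The proliferation list summed to 1252 to 2400 CPM in the tumors and 2356 to 4660 CPM in the lines. In the 3 oviduct-TBP clones, cultured before transplantation, it summed to 2083, 1066 and 2334 CPM, below every line and not above the tumors. The first clone library held only 82239 counts. Of 13 genes of the NRF2 and glutathione system 4 were lower in tumors, where 12.3% of all genes were. G6pdx, which feeds the pentose phosphate pathway, was at 89.3 CPM in the lowest tumor, 118 CPM at the median and 169 CPM in the highest. In culture G6pdx was at 336 and 441 CPM in the mes lines T1 and T3 and 429.9 and 379 CPM in the epi lines T2 and T4 (log2 fold change -1.66 ± 0.22 (SE), adjusted p = 0.000463). The NRF2 count fell to 2 with RLE factors, to 1 with library totals, with no filter or without the mitochondrial rRNA, and to 1 or 2 on leaving out Tumor 2, 4, 5 or 6, both Tumors 5 and 6, T1-mes, T2-epi or T4-epi. It rose to 7 with all libraries of the series in the fit, to 6 with DESeq2 or without T3-mes and to 5 without Tumor 3.

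The lower levels in tumors of these lists, which were higher in the lines, are relative to the middle of all genes. When libraries were scaled on the simple epithelium list instead, the median of all genes moved from 0.12 to 1.85, 2315 genes were called higher and 35 lower in tumors, and the medians of the cholesterol, hypoxia and glycolysis, proliferation and NRF2 lists turned positive, at 0.41, 0.36, 1.33 and 0.77, all below that median. Ldha, Top2a and the p53 target Cdkn1a then turned positive and were not called. Under TMM, RLE or library totals all 4 lists stayed negative.

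Interferon-stimulated genes were higher in tumors for 15 of 27 tested, 9 against epi and 7 against mes lines, and none was lower (median log2 fold change 1.36). The shares over all genes were 21.0%, 17.3% and 8.87%. The interferon-stimulated response element, searched on both strands as GAAA, any 2 bases and GAAA, was in 14 of 21 list members with a promoter entry and in 3.99% of all genes, and in 8 of the 10 called members with an entry. It is shown in capitals, on either strand, in 3 called members: Isg15 (chr4:156200769-156201068, minus strand), Rsad2 (chr12:26456403-26456702, minus strand) and Ifit1 (chr19:34640639-34640938, plus strand).
Isg15: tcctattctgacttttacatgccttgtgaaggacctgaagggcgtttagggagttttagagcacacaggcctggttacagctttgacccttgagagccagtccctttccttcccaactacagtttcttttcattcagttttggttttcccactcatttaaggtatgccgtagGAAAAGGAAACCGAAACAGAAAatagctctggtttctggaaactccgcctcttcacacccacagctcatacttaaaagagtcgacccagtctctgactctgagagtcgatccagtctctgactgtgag
Rsad2: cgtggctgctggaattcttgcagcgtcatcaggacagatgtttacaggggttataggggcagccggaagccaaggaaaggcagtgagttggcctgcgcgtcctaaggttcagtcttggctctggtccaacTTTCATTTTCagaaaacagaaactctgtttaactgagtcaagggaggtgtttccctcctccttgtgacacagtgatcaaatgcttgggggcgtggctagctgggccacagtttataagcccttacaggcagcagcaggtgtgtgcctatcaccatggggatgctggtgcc
Ifit1: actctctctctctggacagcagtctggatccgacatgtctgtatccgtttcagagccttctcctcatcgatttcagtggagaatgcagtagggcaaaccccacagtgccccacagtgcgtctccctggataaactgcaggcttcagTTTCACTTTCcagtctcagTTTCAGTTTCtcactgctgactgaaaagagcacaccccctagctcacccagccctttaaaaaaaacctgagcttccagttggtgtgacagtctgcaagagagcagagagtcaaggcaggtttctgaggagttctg
Isg15 holds 3 overlapping matches, from 78 bases before the start, Ifit1 holds 2, at 104 and 85 bases, and Rsad2 holds 1, at 120 bases. Rsad2, the antiviral enzyme viperin, was at 16.4, 12.2, 7.2, 8.33, 11 and 29.4 CPM in Tumors 1 to 6. In culture Rsad2 was at 0 and 3.08 CPM in the mes lines T1 and T3 and 2.06 and 1.62 CPM in the epi lines T2 and T4 (log2 fold change 3.02 ± 0.70 (SE), adjusted p = 0.00948), without overlap. Isg15, a ubiquitin-like modifier, overlapped, at 4.17 CPM in the lowest tumor, 12.8 CPM at the median and 19.6 CPM in the highest. In culture Isg15 was at 4.84 and 7.71 CPM in the mes lines T1 and T3 and 3.6 and 3.77 CPM in the epi lines T2 and T4 (log2 fold change 1.36 ± 0.42 (SE), adjusted p = 0.0337). Ifit1, a sensor of viral RNA caps, overlapped, from 17.7 to 63.4 CPM in the tumors (median 33.5). In culture Ifit1 was at 6.29 and 11.3 CPM in the mes lines T1 and T3 and 7.21 and 23.7 CPM in the epi lines T2 and T4 (log2 fold change 1.58 ± 0.46 (SE), adjusted p = 0.0278). Stat2, Irf9, Irf7, Mx1 and Ifih1 of the same system were among the 12 not called. The sum of the macrophage list was also higher in each tumor than in each line, as were 19 of its 23 genes. Among tumors that sum was highest in Tumor 2 (8327 CPM), where the interferon list summed to 530 CPM. The interferon sum was highest in Tumor 6 (1028 CPM), where the macrophage list summed to 5298 CPM. The part of macrophages in the interferon values was not tested. MHC class I had 0 of 8 higher and 1 lower than in all lines (H2-K1, log2 fold change -1.07 ± 0.30 (SE), adjusted p = 0.019), and no lower call without T1-mes, without T4-epi or without Tumors 5 and 6. Its median log2 fold change was 0.15 against all lines, 0.75 against epi lines, where 2 were higher and 1 lower, and -0.30 against mes lines. B2m, its light chain, ranged from 337 to 737 CPM in the tumors (median 571). In culture B2m was at 379 and 811 CPM in the mes lines T1 and T3 and 206 and 203 CPM in the epi lines T2 and T4 (log2 fold change 0.67 ± 0.27 (SE), adjusted p = 0.081).

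Signalling lists gave mixed results. TGF-beta genes were higher in tumors for 7 and lower for 1 of 16 tested, where 21.0% of all genes were higher and 12.3% lower; the same shares stand beside the Wnt, BMP, immediate early and p53 counts that follow. Pmepa1, a feedback target of TGF-beta signalling, was at 211 CPM in the lowest tumor, 338 CPM at the median and 390.1 CPM in the highest. In culture Pmepa1 was at 37.7 and 15.4 CPM in the mes lines T1 and T3 and 53 and 39.3 CPM in the epi lines T2 and T4 (log2 fold change 3.21 ± 0.27 (SE), adjusted p = 0.000129) and every line, mes or epi, was below every tumor. Skil, another feedback target, ranged from 29.1 to 71.2 CPM in the tumors (median 58). In culture Skil was at 18.4 and 8.74 CPM in the mes lines T1 and T3 and 18.5 and 29.6 CPM in the epi lines T2 and T4 (log2 fold change 1.61 ± 0.30 (SE), adjusted p = 0.00383). Ltbp1, which stores the latent factor, was higher in lines (log2 fold change -1.46 ± 0.31 (SE), adjusted p = 0.00545). All lines were grown with A83-01 and no tumor was, so the inhibitor and culture cannot be told apart. Of 13 Wnt genes 5 were higher (3 without T4-epi or with 2 classes, 8 with DESeq2) and 1 lower. That gene, Notum, an enzyme that inactivates Wnt ligands and is itself a Wnt target, was at 0.584 CPM in the lowest tumor, 4.32 CPM at the median and 12.5 CPM in the highest. In culture Notum was at 110.3 and 454 CPM in the mes lines T1 and T3 and 10.3 and 28.5 CPM in the epi lines T2 and T4 (log2 fold change -3.93 ± 0.66 (SE), adjusted p = 0.00189) and was highest in the mes lines; any Wnt added to the medium and culture cannot be told apart. Of 9 BMP genes 1 was higher (Id4) and 1 lower, and the lower count was 0 without Tumor 2, Tumor 6, both Tumors 5 and 6, T3-mes or T4-epi. The higher count was 3 without T3-mes or with DESeq2, 2 without Tumor 3 and 0 with 2 classes. Bmp2, a BMP ligand, ranged from 9.85 to 22.3 CPM in the tumors (median 15.4). In culture Bmp2 was at 74.5 and 395 CPM in the mes lines T1 and T3 and 2.06 and 36.1 CPM in the epi lines T2 and T4 (log2 fold change -2.11 ± 0.64 (SE), adjusted p = 0.0275). Of 18 immediate early genes 4 were higher and 4 lower. Each of these counts was 2 without T4-epi or without Tumors 5 and 6, the higher count was also 2 without Tumor 2, Tumor 5, T1-mes or T2-epi and 1 with 2 classes, and the lower count was also 2 without T3-mes. Jun, a subunit of AP-1, was at 421 CPM in the lowest tumor, 727 CPM at the median and 939 CPM in the highest, 404 and 984 CPM in the mes lines T1 and T3 and 74.6 and 66.8 CPM in the epi lines T2 and T4, with epi lines below all other libraries (log2 fold change 3.29 ± 0.44 (SE), adjusted p = 0.0104 for mes over epi).

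Nutlin-3a, under which the lines were kept, raises p53 targets in cells with working p53. Of 20 tested, 11 were higher in tumors and 2 lower. Bax, which opens mitochondria in apoptosis, was at 31.2 CPM in the lowest tumor, 40.2 CPM at the median and 45.1 CPM in the highest. In culture Bax was at 21.3 and 13.9 CPM in the mes lines T1 and T3 and 14.9 and 12.4 CPM in the epi lines T2 and T4 (log2 fold change 1.33 ± 0.21 (SE), adjusted p = 0.00151). Eda2r, a death receptor, was at 2.27 CPM in the lowest tumor, 12.8 CPM at the median and 40.9 CPM in the highest, and at most 1.03 CPM in a line (at least 9.94-fold, adjusted p = 0.00322). Cdkn1a, the cell cycle inhibitor p21, went the other way, at 69.7 CPM in the lowest tumor, 109 CPM at the median and 170.3 CPM in the highest. In culture Cdkn1a was at 369 and 179 CPM in the mes lines T1 and T3 and 211 and 834 CPM in the epi lines T2 and T4 (log2 fold change -1.74 ± 0.40 (SE), adjusted p = 0.0082), with every line above every tumor. Sesn2 was the other p53 target lower in tumors (adjusted p = 0.0298), at 0 CPM in the lowest tumor, 0 CPM at the median and 2.83 CPM in the highest, and in the lines between 2.06 and 8.22 CPM. The count of lower targets was 1 without Tumor 1, 4, 5 or 6, without T4-epi, without Tumors 5 and 6 and with 2 classes. Mdm2, the negative regulator of p53, was not called, ranging from 48.9 to 94.1 CPM in the tumors (median 59.8). In culture Mdm2 was at 83.2 and 78.6 CPM in the mes lines T1 and T3 and 69.5 and 63 CPM in the epi lines T2 and T4 (log2 fold change -0.21 ± 0.20 (SE), adjusted p = 0.469). The share of host cells in the tumor values of this list was not tested.

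Among genes kept at a like level, the 10 with the highest mean, leaving out mitochondrial and ribosomal protein genes, were S100a11, Eef1b2, Ftl1, Fth1, Hsp90ab1, Cfl1, Set, Eef2, Npm1 and Eif4g2. They serve protein synthesis (Eef1b2, Eef2, Eif4g2), iron storage (Ftl1, Fth1), protein folding (Hsp90ab1), ribosome assembly (Npm1) and the actin skeleton (Cfl1). S100a11 was at 4135, 3132, 4525, 2741, 2441 and 3187 CPM in Tumors 1 to 6. In culture S100a11 was at 3715 and 2781 CPM in the mes lines T1 and T3 and 3732 and 5407 CPM in the epi lines T2 and T4, a log2 fold change of -0.20 with a 95% interval from -0.70 to 0.31. Fth1 lay within 2-fold only against the lines together: at 3959 and 2374 CPM in the mes lines T1 and T3 and 977 and 1441 CPM in the epi lines T2 and T4, it was lower in tumors than in mes lines (log2 fold change -0.86 ± 0.26 (SE), adjusted p = 0.0452), while over epi lines it was not called (log2 fold change 0.53 ± 0.26 (SE), adjusted p = 0.168). Eef2 was called and yet lay within 2-fold of all lines (log2 fold change -0.58 ± 0.17 (SE), adjusted p = 0.0261). Of these 10 genes, only Hsp90ab1 and Eif4g2 had intervals within 2-fold of each kind of line taken apart. Against epi lines the intervals of S100a11 (-1.08 to 0.19), Cfl1, Set, Eef2 and Npm1 reached beyond 2-fold. Against mes lines those of Eef1b2 and Ftl1 did so. Of the 76 ribosomal protein genes tested, a list drawn up after levels had been seen, 51 lay within 2-fold of all lines, 36 of epi and 41 of mes lines, read against 27.5%, 16.2% and 18.6% of all genes.

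By the same rule, the 10 genes with the largest change toward tumors were Beta-s, Atp2a1, H2-Aa, C1qc, C1qb, Myh4, Acta1, Tnnc2, H2-Ab1 and Tnnt3: 5 genes of skeletal muscle, 4 of macrophages or antigen presentation, and Beta-s, a beta globin. Beta-s was at 356, 137, 152, 389, 224 and 7339 CPM in Tumors 1 to 6 and had no count in any line (at least 887-fold, adjusted p = 0.00622), and the bound was 156-fold without Tumor 6. Their order rests on fitted values of genes without counts in the lines. The 10 largest changes toward the lines were Krt4, 2900060B14Rik, Mir5109, Sult1d1, Gm3336, Ptgs2, Rn45s, mt-Rnr1, Padi2 and mtNd6. Krt4, a keratin of moist surface epithelia, was at 40.3, 1.88, 25.8, 1.04, 0.343 and 0 CPM in Tumors 1 to 6. In culture Krt4 was at 2175 and 78.6 CPM in the mes lines T1 and T3 and 2823 and 1638 CPM in the epi lines T2 and T4 (log2 fold change -7.03 ± 1.22 (SE), adjusted p = 0.00418). Ptgs2, the inducible prostaglandin synthase COX-2, was at 0.653 CPM in the lowest tumor, 1.81 CPM at the median and 6.43 CPM in the highest. In culture Ptgs2 was at 128 and 19.5 CPM in the mes lines T1 and T3 and 40.2 and 38.8 CPM in the epi lines T2 and T4 (log2 fold change -4.35 ± 0.64 (SE), adjusted p = 0.000855). Sult1d1, a sulfotransferase, had counts in Tumors 1 and 3 (6.43 and 7.2 CPM) and in Tumor 6 (0.653 CPM), and reached 346 CPM in T4-epi.

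Several of the genes that marked the lines are not messenger RNAs. Rn45s, the ribosomal RNA precursor, was at 97.3 CPM in the lowest tumor, 241 CPM at the median and 638 CPM in the highest. In culture Rn45s was at 3972 and 3691 CPM in the mes lines T1 and T3 and 5062 and 7957 CPM in the epi lines T2 and T4 (log2 fold change -4.03 ± 0.52 (SE), adjusted p = 0.000635), and as a repeated gene its unique reads are uncertain. The mitochondrial ribosomal RNAs mt-Rnr1 and mt-Rnr2 summed to 7140.1 to 8371 CPM in the tumors (median 7787), and to 46215 and 103906 CPM in the mes lines T1 and T3 and 102951 and 96332 CPM in the epi lines T2 and T4. Mitochondrial messenger RNAs did not share this: of 13, 6 were higher and 4 lower in tumors, with a median log2 fold change of 0.23. mtCo2, a subunit of cytochrome oxidase, was at 16553 CPM in the lowest tumor, 17506 CPM at the median and 23539 CPM in the highest. In culture mtCo2 was at 6143 and 6338 CPM in the mes lines T1 and T3 and 6858 and 7587 CPM in the epi lines T2 and T4 (log2 fold change 1.48 ± 0.16 (SE), adjusted p = 0.00031). mtNd6, encoded on the opposite strand, was at 1.31 CPM in the lowest tumor, 3.45 CPM at the median and 7.55 CPM in the highest. In culture mtNd6 was at 189.7 and 77.6 CPM in the mes lines T1 and T3 and 34 and 33.4 CPM in the epi lines T2 and T4 (log2 fold change -3.92 ± 0.42 (SE), adjusted p = 0.000201). The 3 oviduct-TBP clones, also prepared with columns, held 20664, 158948 and 151506 CPM of mitochondrial ribosomal RNA, each above every tumor; the first of these libraries held 82239 counts in all. The RNA preparation differs between tumors and lines, and its part in these levels was not tested. Leaving both rRNA genes out of the totals gave 2451 genes higher and 1382 lower in tumors.

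Xist, which coats the inactive X chromosome of female cells, divided the lines. It was at 105, 49, 23.1, 22.9, 71.1 and 67.9 CPM in Tumors 1 to 6. In culture Xist was at 83.7 and 1.54 CPM in the mes lines T1 and T3 and 147 and 1.62 CPM in the epi lines T2 and T4. T1-mes and T2-epi, from 1 mouse and clone, held it in the range of the tumors or above, and T3-mes and T4-epi held 3 counts each. No difference between tumors and lines was called (log2 fold change 0.01 ± 1.0003 (SE), adjusted p = 0.995), and the fold change moved from -0.48 without T4-epi to 2.74 without T2-epi.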

How the data were processed

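Whole-number counts per gene were deposited for 18305 genes in 27 libraries. Per the labels and the study's methods, the authors made them from CEL-Seq2 libraries sequenced as paired ends, mapped with BWA to GRCm38, keeping uniquely mapped reads in the sense direction, and did not correct for molecular identifiers, so PCR copies are included. The count data were not normalized. A spike-in row with 1 count was left out.

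The 6 tumor and 4 line libraries were fitted with edgeR 4.0.16 (R 4.3.3) in 1 quasi-likelihood model with 3 classes (tumors, mes, epi), TMM scaling and edgeR's filter on low counts, which kept 11685 genes. Contrasts weighed mes and epi lines equally, p-values were adjusted by Benjamini-Hochberg over all genes tested, and the threshold was 0.05. A gene was taken as kept where the 95% interval of its change lay within 2-fold. Where all libraries of a group held at most 3 counts, a bound against 3 counts per library is given in place of a fold. These bounds and the intervals do not cover errors from PCR copies. Samples were grouped by GEO's titles, and no pair of replicates agreed within sampling noise. On simulated counts for tumors against all lines over 11685 genes, the test was checked before use. DESeq2 1.42.0 and the other alternatives named in the closing section were run with 1 choice changed at a time, except that the replicate block was fitted with 2 classes and without Tumors 5 and 6.

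Members and lists were chosen with earlier results of these data known, and lists are described by counts and medians only. Genes named were the targeted genes and Xist, list members, the 10 largest changes in each direction among called genes with a mean of at least 50 CPM in the higher group and no overlap, the 10 highest genes within 2-fold (mitochondrial and ribosomal protein genes left out), and the 5 largest changes over epi lines that were also called higher in mes than epi lines. Lists of mitochondrial and ribosomal protein genes, and the promoters shown, were picked after levels had been seen. Not every gene that was edited is covered here. Promoters are from RefSeq (GRCm38.p6), matched by symbol.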

Additional observations from a re-analysis of the deposited data

Results flagged for a closer look

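Of 129 groups of 4 to 10 samples checked, 12 held 1 sample that stood apart from the rest by Dixon's criterion, which chance gives in about 1 of 20. In 4 of them the group was otherwise at or near 0: among the lines, Ptprc was at 1.45 CPM in T1-mes, Atp2a1 at 1.03 CPM in T3-mes, Postn at 6.17 CPM in T3-mes and Col4a1 at 0.515 CPM in T2-epi. T3-mes also stood apart from the other lines with 9486 CPM of Thbs2, 7.20 CPM of Pax8 and 1358 CPM summed over the BMP list. T1-mes stood apart with 589 CPM of the stratified epithelium list and with the least mitochondrial rRNA, 46215 CPM. T4-epi held 21284 CPM of the hypoxia and glycolysis list. Among tumors, Tumor 1 held 317 CPM of the mast cell list and Tumor 6 held 159 CPM of the erythroid list.

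The change from tumors differed between mes and epi lines for 5 of the genes followed through the alternatives, by edgeR's contrast of mes against epi lines. The log2 fold changes of mes over epi were 6.72 for Col1a1 (adjusted p = 0.0140), 6.08 for Vim (adjusted p = 0.0137), 6.48 for Fn1 (adjusted p = 0.0262), 6.84 for Zeb1 (adjusted p = 0.00592) and 6.32 for Thbs2 (adjusted p = 0.0220). Both mes lines were above both epi lines for each of the 5 genes. Zeb1 had 1 count in each epi line, so its fitted value depends on the prior count. Over 18 alternatives the calls held in 15, 15, 14, 16 and 15, with adjusted p up to 0.163, that of Fn1.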

How the results depend on the processing

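Except where stated, causes were not tested. Left out one at a time, the libraries gave from 0 to 425 genes higher and from 0 to 75 lower in mes than epi lines. Tumors against mes lines ranged from 368 to 1022 higher, from 318 to 705 lower and from 900 to 2126 within 2-fold, tumors against epi lines from 857 to 2113 higher, from 496 to 1402 lower and from 713 to 1970 within 2-fold, and tumors against all lines from 1851 to 2395 higher, from 947 to 1443 lower and from 2452 to 3028 within 2-fold. Scaled on the simple epithelium list, genes lower in tumors than all, epi and mes lines numbered 35, 29 and 49, genes higher than epi and mes lines 3342 and 689, genes within 2-fold 0 in each, and mes against epi lines 622 and 0. DESeq2 gave 1615 genes higher in tumors than mes lines and 594 and 147 for mes against epi. Fitted with all libraries of the series, mes against epi gave 486 and 69. With 2 classes 1602 genes were higher in tumors. Without Tumors 5 and 6, added after seeing the data, 530 genes were lower than mes lines and 9 lower in mes than epi. Beyond 2-fold, 936 genes were lower in tumors than all lines. Within 1.5-fold lay 501, 144 and 158 genes for all, epi and mes lines. On the 500 most variable genes the distances were 122, 103 and 57.7 for tumors to epi lines, to mes lines and among tumors, in the same order; fewer genes give smaller distances.

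Of 620 values of 31 named genes under 20 alternatives, 575 kept direction and call, 25 lost and 4 gained the call, and 16 reversed. Scaled on epithelium, the log2 fold changes of Ldha, Top2a and Cdkn1a were 0.058, 0.19 and 0.31. With 2 classes, those of Thbs2 and Xist were -2.09 and -0.038, and without Tumors 5 and 6 that of Xist was -0.16. Leaving out 1 library, Thbs2, Xist and Brca1 ranged from -0.30 to 1.02, from -0.48 to 2.74 and from -0.11 to 1.04; none of the 3 was called.

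Tumors 1 to 4 and lines T1 to T4 share numbers, but the labels do not say that a number marks 1 tumor, and the deviations of same-numbered libraries correlated at -0.0103, -0.261, -0.483 and -0.254, and none of the 4 tumors correlated best with the line of its number. With the replicate block and Tumors 5 and 6 left out, 246 genes were higher and 164 lower in tumors and 1639 lay within 2-fold, against 984 and 807 for the same libraries without the block, a fit added after seeing the data. Depth, from 936348 counts, limits genes at a few CPM.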
